A study of Mus musculus with 18 samples.

Results

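Type I interferons are cytokines that cells release when their sensors meet viral or bacterial molecules, and they act through a cell-surface receptor that activates the kinases Jak1 and Tyk2. The signal leads to transcription factors that bind the interferon-stimulated response element (ISRE) in the promoters of several families of antiviral genes. In macrophages, lipopolysaccharide (LPS) from bacterial walls engages the receptor Tlr4, whose adaptor Ticam1 leads to Irf3 and to the production of interferon beta, so that the interferon response follows the inflammatory response with a delay. The values below describe 53 of the 11243 genes of the deposited count table. The 53 are the members of a written list of type I interferon-stimulated genes that leaves out the IRF, STAT, GBP and PYHIN genes, and every listed symbol was in the table. They are described in 9 groups by role, from RNA-binding proteins and enzymes that act on viral RNA to adaptors and lectins.

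The study asked how LPS changes the mRNA content and the translation of phagocytes and how much of this passes through the kinase mTOR. RAW264.7 cells, an established macrophage line from mouse, were left as control cells, were stimulated with 500 ng/mL LPS for 6 h, or were treated with 100 nM torin1, which inhibits mTOR, from 15 min before the same LPS stimulation. The control is a vehicle (DMSO) group in the sample descriptions and is called untreated in the study's results. From each of 9 lysates, 3 per treatment, one library of total mRNA and one of polysome-associated mRNA (the pooled heavy polysomes, in which several ribosomes sit on an mRNA) were sequenced, which gives 18 libraries in 6 groups of 3. The authors aligned reads to GRCm38 and deposited counts for genes they describe as protein-coding, and genes with 0 counts in a library had been removed. Library totals ran from 27800983 to 47725557 counts, and the lowest count of a member in a library was 19, for Ifit3b, the member with the fewest counts. Levels are given as CPM, the rate of reads relative to library size, after TMM scaling within an RNA type, in the order of experiments 1, 2 and 3. Differences are log2 fold changes fitted with edgeR, ± the SE of the fit, with 3 libraries per group. A gene is called at an adjusted p of at most 0.25 over all 11243 genes, and by a stricter rule at an adjusted p of at most 0.05 with a fold change of at least 2. The p-values measure the spread between the 3 libraries of a group, and the labels give no more than an experiment number for each.

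Of 10 macrophage markers, 9 were in the table and Mertk was not. Lyz2, the lysozyme of myeloid cells, was at 6978, 8002 and 7748 CPM in the total mRNA of control cells, 6667, 5829 and 7826 CPM after LPS and 4748, 4774 and 5622 CPM after LPS and torin1, which made it the most abundant of them in each control library. The summed level of the 9 markers in total mRNA was 12461, 13335 and 12893 CPM in control cells, 13607, 13748 and 15066 CPM after LPS and 11223, 11866 and 12182 CPM after LPS and torin1, lowest in the torin1 library of each experiment, while their median on the log2 scale was 8.98, 9.21 and 9.02 in control cells, 9.29, 9.41 and 9.35 after LPS and 9.01, 9.46 and 9.47 with both. In polysome-associated mRNA it was 20297, 18720 and 19588 CPM in control cells, 22580, 19214 and 22068 CPM after LPS and 17989, 15907 and 16020 CPM with both. Of these markers, 5 rose (32.2% of all genes) and 1 fell (34.3%) with LPS in total mRNA, and 4 rose (26.4%) and 1 fell (28.7%) in polysome-associated mRNA. With torin1 beside LPS, 2 rose (27.3%) and 3 fell (26.4%) in total mRNA, and 1 rose (20.3%) and 3 fell (18.2%) in polysome-associated mRNA. For LPS with torin1 versus control 5 rose (33.1%) and 2 fell (33.6%) in total mRNA, and 4 rose (28.5%) and 2 fell (29.7%) in polysome-associated mRNA. None of the 5 B cell markers, the 6 fibroblast markers or the 5 epithelial markers was in the table. Of 6 T cell markers only Lck was present, at 3.49, 5.29 and 3.48 CPM without LPS and 11.7, 17.4 and 9.91 CPM after it, and of 6 neutrophil markers only S100a8, at 0.273, 0.113 and 0.234 CPM and 5.90, 2.10 and 3.64 CPM. Lck and S100a8 were called higher with LPS and lower with torin1 beside LPS in both RNA types. With torin1 Lck was at 5.13, 7.60 and 5.47 CPM and S100a8 at 1.25, 1.61 and 3.62 CPM in total mRNA. S100a8 hardly moved in experiment 3, and in polysome-associated mRNA of that experiment it was at 4.67 CPM after LPS and 5.00 CPM with both. In such bulk libraries, fewer responding cells and less mRNA per cell cannot be told apart.

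The libraries of experiment 2 stood apart for the interferon-stimulated genes before any LPS was given. The median level of the 53 genes in the total mRNA of control cells was 5.35, 6.63 and 5.77 on the log2 CPM scale in experiments 1, 2 and 3, beside 4.98, 5.00 and 4.99 for all genes. In polysome-associated mRNA of control cells it was 5.52, 6.75 and 5.76. Each of the 53 genes had its highest control value of total mRNA in experiment 2, against 38.5% of all genes, and 51 of the 53 did so in polysome-associated mRNA, against 35.4% of all genes. Other lists differed in this. In the same order of RNA types, 10 and 6 of 12 genes of interferon receptor signalling had their highest control value in experiment 2. So did 8 and 9 of 13 inflammatory genes driven by NF-kB. Of 14 genes for interferon production, 7 did so in total mRNA. In polysome-associated mRNA 4 of the 14 did so (28.6%), a smaller share than of all genes, and 7 were highest in experiment 1. The shares of these lists were not tested against all genes. The median excess of experiment 2 over the mean of the other control libraries was 1.01 in total and 1.04 in polysome-associated mRNA on the log2 scale, beside 0.01 and −0.01 for all genes. At least 2-fold higher in both RNA types were 24 of the 53 genes (45.3%) and 134 of the 11243 (1.19%). With LPS alone the medians of the 3 experiments were closer, at 8.78, 8.66 and 8.60 in total mRNA and 8.44, 8.63 and 8.35 in polysome-associated mRNA, while 27 and 29 of the 53 genes were highest in experiment 2, against 30.9% and 38.0% of all genes. With LPS and torin1 experiment 2 was again the highest, at 7.26, 8.31 and 7.39 in total and 7.28, 7.91 and 7.40 in polysome-associated mRNA, and this held for 52 of the 53 genes (all genes 34.8%), with Oas2 as the exception, and for 45 of the 53 (all genes 41.8%). The cause of the higher control level was not tested, and the main counts are given with and without experiment 2.

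**Figure D1:**
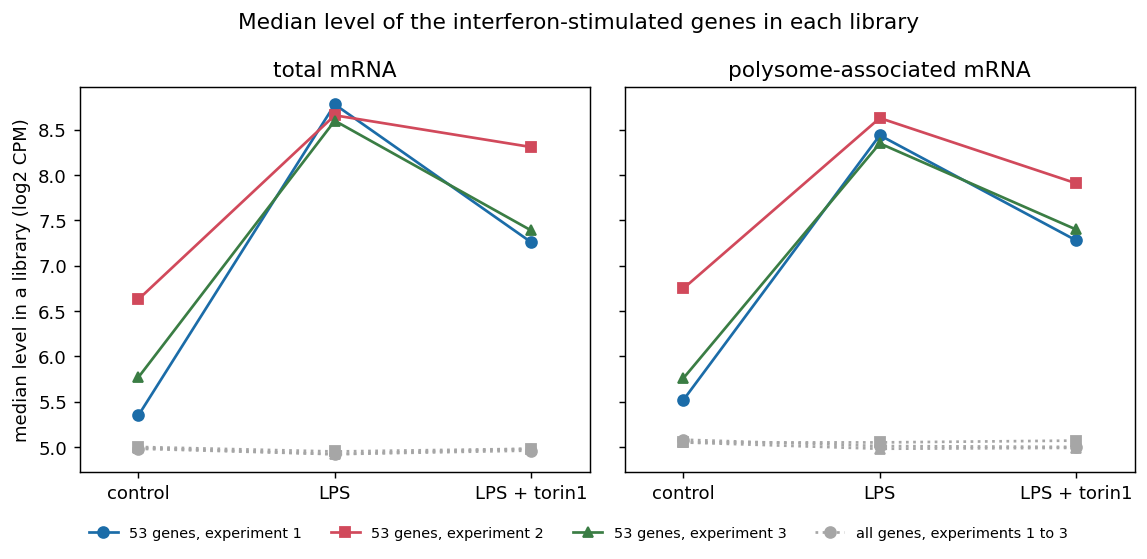
Median log2 CPM of the 53 interferon-stimulated genes in each of the 18 libraries, by treatment, with 1 line per experiment and the median of all genes in grey. The lines of experiments 1 and 3 start near 5.5 in control cells and that of experiment 2 near 6.7, and the 3 lines are closer with LPS and part again with torin1.

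LPS raised the whole list, which had been chosen with earlier results of these data known. Its counts beside those of all genes are therefore a description. In each experiment all 53 genes were higher with LPS than in control cells, by a median of 2.80, 1.78 and 2.38 on the log2 scale in total mRNA and 2.95, 1.75 and 2.37 in polysome-associated mRNA. The smallest of these medians came from experiment 2, which had started from the higher control level. In total mRNA 53 of 53 were called higher, where 32.2% of all genes were, and 0 were called lower, where 34.3% of all genes were. Polysome-associated mRNA gave 53 of 53 called higher (26.4% of all genes) and 0 called lower (28.7% of all genes). At an unadjusted p under 0.05 edgeR also had 53 higher and 0 lower in both RNA types, where 25.3% and 20.4% of all genes were higher and 27.6% and 22.2% lower in total and polysome-associated mRNA. DESeq2 called 53 higher (32.9% and 27.0% of all genes) and 0 lower (31.8% and 26.6%). By the stricter rule 52 were called higher in total mRNA (8.72% of all genes) and 52 in polysome-associated mRNA (8.49%), and Adar, which rose by 0.97 in both, was the exception. The 3 LPS libraries lay above the 3 control libraries without overlap for 53 genes in total mRNA (25.6% of all genes) and for 53 in polysome-associated mRNA (22.2%). The fitted changes had a median of 2.29 in total mRNA, from 0.97 for Adar to 6.04 for Rsad2, and of 2.31 in polysome-associated mRNA, from 0.97 for Adar to 6.08 for Rsad2, while the medians of all genes were −0.02 and −0.03. Without experiment 2 the count stayed at 53 in total mRNA (30.1% of all genes) and 53 in polysome-associated mRNA (30.6%), and the medians were 2.64 and 2.61. Scaling by library totals alone moved the median of all genes to −0.38 in both RNA types for LPS versus control, to −0.30 for LPS with torin1 versus control and to 0.07 and 0.06 for LPS with torin1 versus LPS, and changes below are those after TMM scaling.

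Torin1 before LPS left most of these genes lower than LPS alone, by unequal amounts. The per-experiment median of the difference was −1.15, −0.41 and −0.91 in total mRNA and −0.95, −0.44 and −0.82 in polysome-associated mRNA. Lower with torin1 were 52, 51 and 53 of the 53 genes in the total mRNA of experiments 1, 2 and 3, and 53, 49 and 53 in polysome-associated mRNA. In total mRNA 45 of 53 were called lower (26.4% of all genes) and 0 higher (27.3% of all genes), and in polysome-associated mRNA 34 were called lower (18.2%) and 0 higher (20.3%). At an unadjusted p under 0.05 edgeR had 28 lower (19.9% of all genes) and 0 higher (21.0%) in total and 27 lower (13.9%) and 0 higher (16.0%) in polysome-associated mRNA. DESeq2 called 41 and 39 lower (27.3% and 18.9% of all genes) and 0 higher (25.1% and 18.8%). The 8 not called lower in total mRNA were Oas3, Oasl2, Uba7, Herc6, Dhx58, Ifitm3, Parp9 and Slfn2. With the experiment as a block in the model, 51 were called lower in total mRNA (31.4% of all genes) and 45 in polysome-associated mRNA (24.3%), and of these 8 only Oas3 and Slfn2 were then not called in total mRNA. Calls given for single genes below are those of the model without the block. The stricter rule took 12 in total mRNA (2.44% of all genes), namely Ifit1, Ifit3, Ifit3b, Oasl1, Ifih1, Mx1, Mx2, Rsad2, Slfn8, Trim21, Pml and Daxx, and 7 of these in polysome-associated mRNA (2.2%), namely Ifit1, Ifit3b, Oasl1, Ifih1, Mx2, Slfn8 and Daxx. With the experiment as a block it took 18 in total mRNA (2.76% of all genes) and 17 in polysome-associated mRNA (2.94%). Without experiments 1, 2 and 3 the stricter rule took 6, 27 and 0 in total mRNA (1.83%, 2.73% and 1.3% of all genes) and 0, 21 and 0 in polysome-associated mRNA (0.347%, 3.43% and 0.445%). Libraries with torin1 lay below those with LPS alone without overlap for 33 genes in total mRNA (19.8% of all genes) and for 36 in polysome-associated mRNA (15.5%). The fitted medians were −0.77 in total and −0.74 in polysome-associated mRNA, beside 0.00 for all genes in both, with a range from −2.42 for Ifit3b to 0.00 for Oas3 in total mRNA and from −2.22 for Ifit3b to −0.04 for Slfn2 in polysome-associated mRNA.

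How many genes passed this test depended on the experiments used. Without experiment 2, 51 were called lower in total mRNA (23.2% of all genes) and 49 in polysome-associated mRNA (23.4%), with medians of −1.10 and −0.93. Oas3 and Slfn2 were then the genes not called in total mRNA. Without experiment 1 the counts were 27 (21.8% of all genes) and 12 (6.58%), and without experiment 3 they were 19 (16.8%) and 10 (4.25%), in the same order of RNA types. The medians without experiment 1 were −0.58 and −0.57, and without experiment 3 −0.74 and −0.71. LPS versus control and LPS with torin1 versus LPS share the LPS libraries, and the correlation between them was not computed.

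With torin1 beside LPS, most levels stayed above those of control cells of the same experiment. In total mRNA this held for 53, 53 and 53 of the 53 genes in experiments 1, 2 and 3, and in polysome-associated mRNA for 53, 53 and 52, where Bst2 in experiment 3 was at 142.12 CPM beside 145.88 CPM in control cells. The median difference of the 53 genes was 1.83, 1.43 and 1.47 in total mRNA and 1.95, 1.38 and 1.50 in polysome-associated mRNA. Called higher than control were 53 of 53 in total mRNA (33.1% of all genes) and 53 of 53 in polysome-associated mRNA (28.5%). The stricter rule took 39 in total mRNA (10.2% of all genes) and 39 in polysome-associated mRNA (9.94%). The 3 libraries with LPS and torin1 lay above the 3 control libraries for 51 genes in total mRNA (30.2% of all genes), where Rtp4 and Ifi44 overlapped, and for 47 in polysome-associated mRNA (23.3%), where Mx1, Bst2, Pml, Rtp4, Ifi35 and Ifi44 overlapped. Fitted medians were 1.47 and 1.48, from 0.55 for Rtp4 to 4.16 for Rsad2 in total mRNA and from 0.60 for Lgals3bp to 4.31 for Rsad2 in polysome-associated mRNA. Without experiment 2 the counts were 53 (30.1% of all genes) and 52 (33.1%), and the medians were 1.59 and 1.57. Without experiment 1 the stricter rule took 25 in polysome-associated mRNA (8.17% of all genes).

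The difference made by torin1 is also given as the share of the rise in CPM over control that was kept with it. This share was taken from group means and is a description, since both rises are over the same control libraries. No library had torin1 without LPS, so an effect of torin1 on the level before LPS cannot be told apart from one on the rise. In total mRNA this share ran from 16.0% for Ifit3b to 100.5% for Oas3, with a median of 47.5%. In polysome-associated mRNA it ran from 18.5% for Mx1 to 96.7% for Slfn2, also with a median of 47.5%. The gene at that median was Bst2, whose share was 17.8, 75.2 and −3.97% in experiments 1, 2 and 3. By experiment, the share of Ifit3b in total mRNA was 10.4, 23.2 and 11.2%, that of Mx1 9.11, 31.1 and 12.2% and that of Ifit1 16.1, 33.0 and 18.2%. Each of these 3 genes kept the largest share in experiment 2. The share of Trim30a, the gene at the median in total mRNA, was 27.9, 74.8 and 49.8%, that of Slfn2 73.5, 118.6 and 99.3% and that of Oas3 102, 112.1 and 87.0%. A value above 100% means that the level with torin1 was above that with LPS alone, as in experiment 2 for Slfn2 and in experiments 1 and 2 for Oas3.

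**Figure D2:**
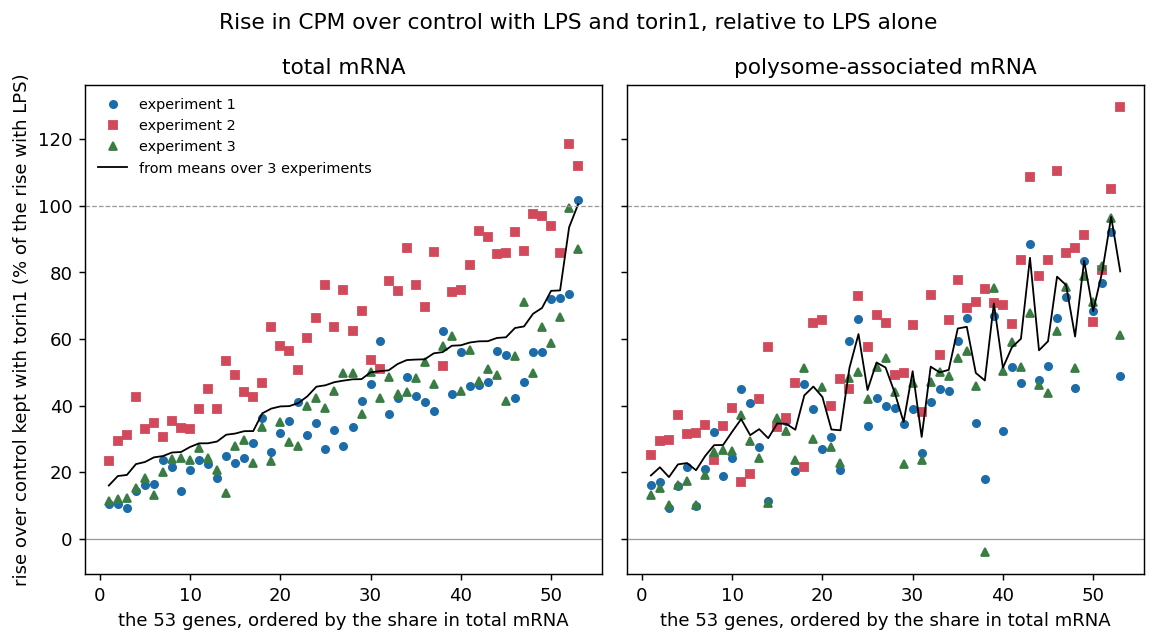
Rise in CPM over control with LPS and torin1 as a percentage of the rise with LPS alone, for the 53 genes in order of this share in total mRNA, with 1 point per experiment and a line from the group means. The line climbs from 16.0% to 100.5% in total mRNA and the squares of experiment 2 lie above the line for most genes.

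**Figure D3:**
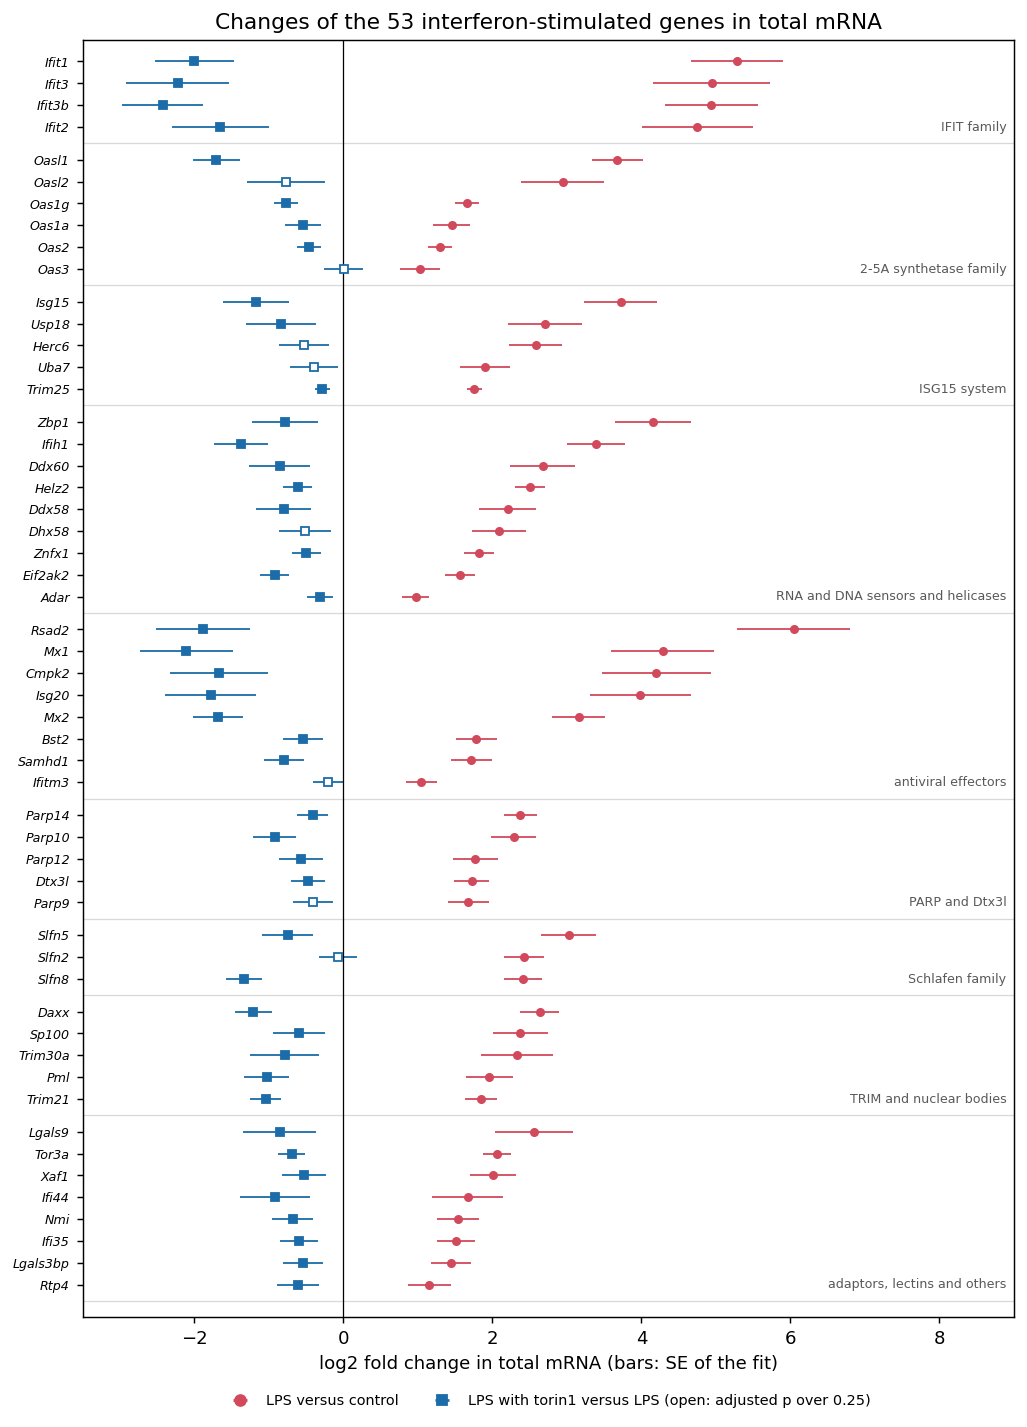
Fitted log2 fold changes in total mRNA of the 53 interferon-stimulated genes by role, with the SE of the fit as bars (3 libraries per group). The red points for LPS versus control lie between 0.97 and 6.04, the blue squares for LPS with torin1 versus LPS lie between −2.42 and 0.00, and open squares mark the 8 genes not called lower.

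The IFIT proteins bind the ends of foreign RNA and hinder its translation, and their 4 listed genes sit next to each other on chromosome 19. Promoter sequences from RefSeq (GRCm38.p6, 250 bases before to 50 after the start) were searched for the ISRE, written as GAAA, 2 bases and GAAA on either strand. Windows are shown here and below only for genes with a match, so they do not link a match to the size of a change. Those of Ifit1 (chr19:34640784-34640833, plus strand), Ifit3 (chr19:34583353-34583402, plus strand) and Ifit3b (chr19:34607749-34607798, plus strand) were picked because these genes had some of the largest changes. Ifit2, which also rose strongly with LPS, had no match. In each window 1 match is in capitals, read on the strand of the gene. The other match of Ifit1, TTTCACTTTC, also lies in its window, in small letters.
Ifit1: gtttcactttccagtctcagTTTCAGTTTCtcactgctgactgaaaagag
Ifit3: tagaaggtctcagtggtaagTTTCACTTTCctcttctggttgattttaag
Ifit3b: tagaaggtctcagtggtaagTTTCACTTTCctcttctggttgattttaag
The window of Ifit3 repeats in Ifit3b, and 51.2% of the 50-base words of Ifit3 exons also occur in Ifit3b, so reads can be shared between the pair and their separate values are uncertain.

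Ifit1, which recognises foreign RNA caps, was at 8.29, 46.6 and 18.5 CPM in control cells, 846, 1071 and 938 CPM after LPS and 144, 385 and 186 CPM after LPS and torin1 in total mRNA. For Ifit2 the levels were 14.0, 64.4 and 23.7 CPM in control cells, 632, 1401 and 722 CPM after LPS and 126, 583 and 167 CPM after LPS and torin1. Both genes were low in each control library, highest in each LPS library and between the others with torin1, without overlap of the 3 groups. Ifit3 was at 2.92, 19.3 and 4.86 CPM in control cells, 261, 366 and 216 CPM after LPS and 29.8, 121 and 30.2 CPM after LPS and torin1. Its near copy Ifit3b had 0.577, 3.43 and 1.35 CPM in control cells, 47.4, 71.9 and 50.4 CPM after LPS and 5.43, 19.3 and 6.86 CPM after LPS and torin1. In control cells the value of experiment 2 was several times that of experiment 1 for each of the 4 genes. With LPS, Ifit1 rose by a log2 fold change of 5.28 ± 0.62 (edgeR adjusted p = 7.57e-05) and Ifit2, the smallest change of the family, by 4.75 ± 0.75 (edgeR adjusted p = 0.000515). Ifit3 rose by 4.94 ± 0.79 (edgeR adjusted p = 0.000568) and Ifit3b by 4.94 ± 0.62 (edgeR adjusted p = 0.000121). Torin1 beside LPS gave −2.42 ± 0.54 (edgeR adjusted p = 0.00839) for Ifit3b and −2.22 ± 0.69 (edgeR adjusted p = 0.0356) for Ifit3, the largest falls of the 53 genes in total mRNA, with −1.999 ± 0.53 (edgeR adjusted p = 0.0187) for Ifit1 and −1.65 ± 0.65 (edgeR adjusted p = 0.0825) for Ifit2. The call with torin1 of Ifit2 (−1.52) was lost without experiment 3.

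Polysome-associated mRNA of this family held the same order of treatments. Ifit1 was at 7.68, 37.3 and 15.6 CPM in control cells, 644, 676 and 882 CPM after LPS and 145, 237 and 165 CPM after LPS and torin1. The levels of Ifit3 were 1.82, 13.3 and 3.44 CPM in control cells, 174, 247 and 179 CPM after LPS and 31.2, 82.0 and 29.96 CPM after LPS and torin1. Ifit3b was at 0.500, 2.27 and 0.639 CPM in control cells, 25.7, 47.0 and 35.1 CPM after LPS and 4.53, 13.5 and 5.20 CPM after LPS and torin1. The 3 treatments did not overlap for any of these 3 genes. LPS gave log2 fold changes of 5.18 ± 0.53 (edgeR adjusted p = 5.46e-05) for Ifit1, 5.02 ± 0.72 (edgeR adjusted p = 0.000446) for Ifit3 and 4.99 ± 0.63 (edgeR adjusted p = 0.000207) for Ifit3b in this RNA type. Torin1 beside LPS gave −2.22 ± 0.55 (edgeR adjusted p = 0.0238) for Ifit3b, −2.07 ± 0.62 (edgeR adjusted p = 0.0514) for Ifit3 and −2.01 ± 0.46 (edgeR adjusted p = 0.0173) for Ifit1. Leaving out experiment 3 removed the torin1 call of Ifit3 (−1.88). In total mRNA 4 of 4 were called lower with torin1 (26.4% of all genes). Without experiments 1, 2 and 3 these were 4, 4 and 3 (21.8%, 23.2% and 16.8%), where Ifit2 was the gene lost. In polysome-associated mRNA 4 of 4 were called lower (18.2%), and 3, 4 and 2 without experiments 1, 2 and 3 (6.58%, 23.4% and 4.25%). The family medians in total mRNA were 4.94 with LPS and −2.11 with torin1.

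**Figure D4:**
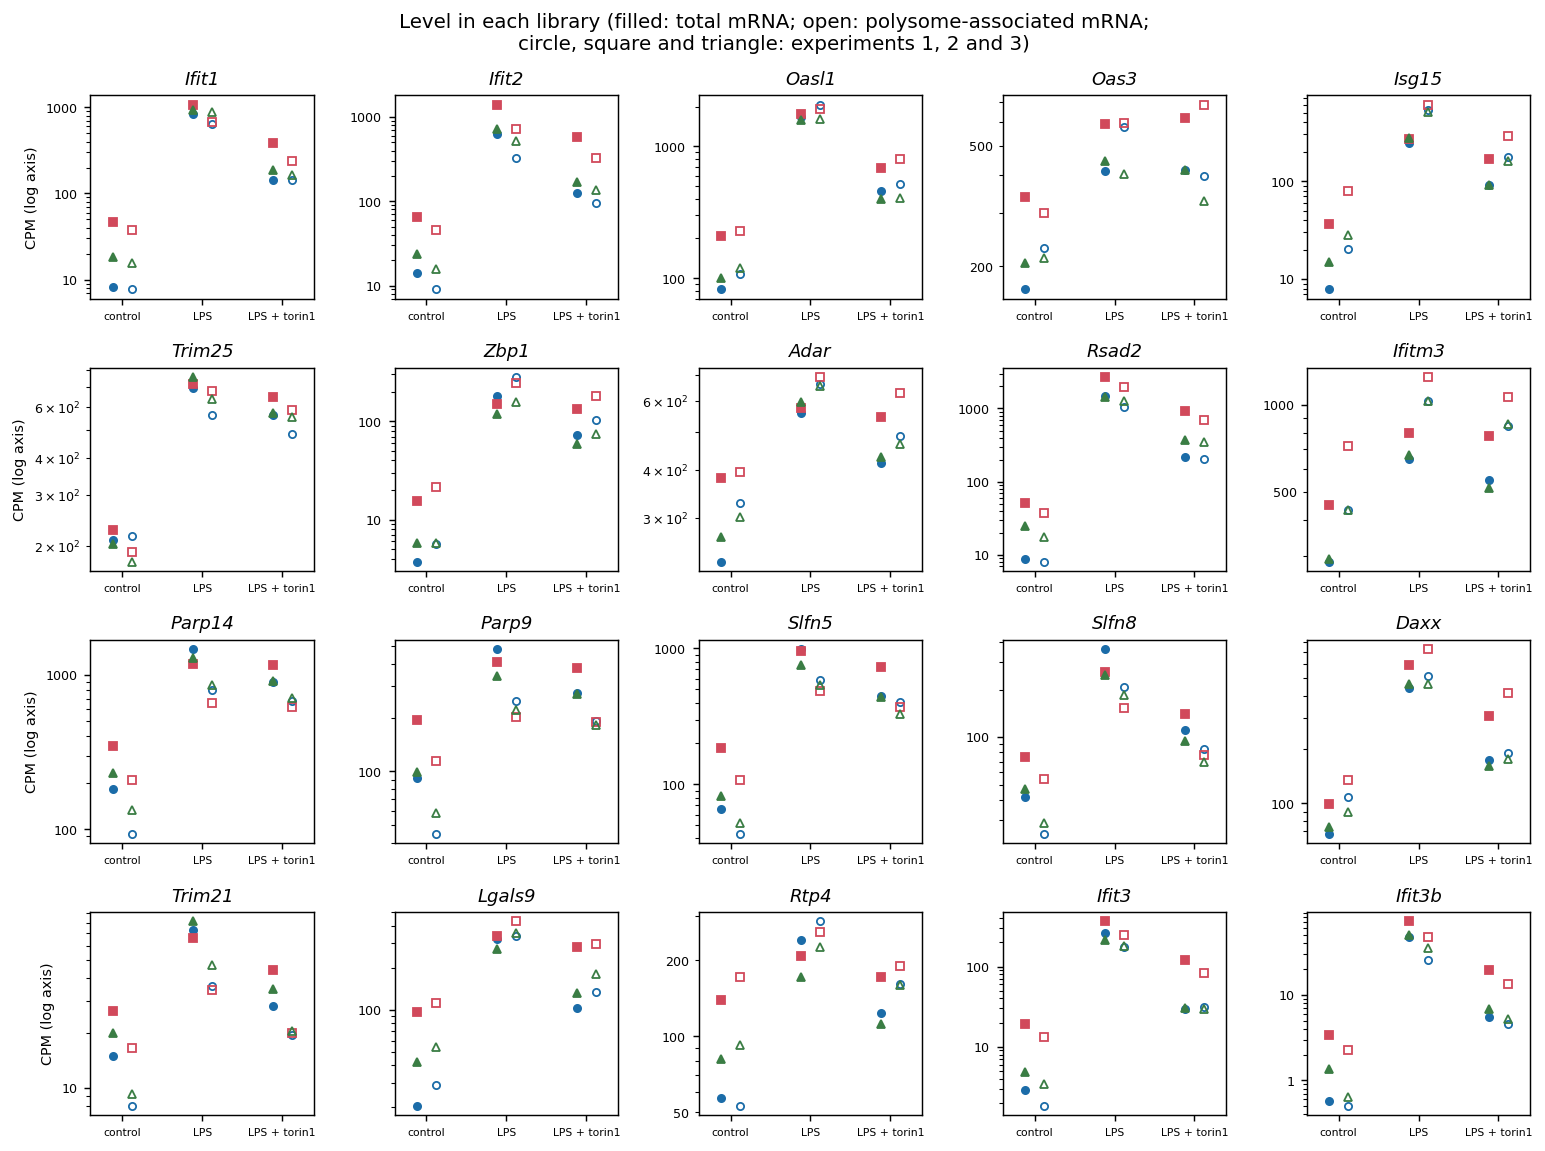
CPM on a log axis in each library for 20 of the interferon-stimulated genes, namely the largest and the smallest LPS change of each role group with Ifit3 and Ifit3b, in total (filled) and polysome-associated mRNA (open). Control values lie below LPS values in every panel, and the square of experiment 2 is the highest control value of total mRNA in every panel.

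Oligoadenylate synthetases are switched on by double-stranded RNA and make short oligoadenylates, which activate RNase L to cut RNA. Oas1a, Oas1g, Oas2 and Oas3 lie together on chromosome 5, and Oasl1 and Oasl2 lie as a pair elsewhere on it. The promoter window of Oas3 (chr5:120777705-120777754, minus strand) is shown as that of the member with the least response to torin1.
Oas3: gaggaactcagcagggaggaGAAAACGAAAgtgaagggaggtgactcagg
It holds the ISRE in the GAAA form, while the promoters of Oasl1 and Oasl2 had no match. Oas1a and Oas1g share much of their exon sequence (57.6% of the 50-base words of Oas1a occur elsewhere, in Oas1g and Oas1b), so reads can be shared between them too.

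Oasl1, an OAS-like protein without synthetase activity that restrains the translation of Irf7, was at 82.1, 209 and 100.6 CPM in control cells, 1679.9, 1754 and 1576 CPM after LPS and 461, 679.6 and 398 CPM after LPS and torin1 in total mRNA. Oasl2, which carries the same ubiquitin-like domains, had 9.39, 59.7 and 19.3 CPM in control cells, 225, 242 and 216 CPM after LPS and 100.2, 196 and 104.6 CPM after LPS and torin1. Oasl1 with torin1 stayed far under its LPS libraries, while the torin1 library of Oasl2 in experiment 2 came close to them. The synthetase gene Oas1a was at 53.4, 98.7 and 57.1 CPM in control cells, 221, 188 and 165 CPM after LPS and 116, 168 and 109.7 CPM after LPS and torin1. Oas1g was at 39.5, 51.7 and 43.1 CPM in control cells, 169.9, 130.7 and 126 CPM after LPS and 80.8, 97.6 and 72.0 CPM after LPS and torin1. Oas2, a larger synthetase, had 146, 196 and 186 CPM in control cells, 470.0, 334 and 497 CPM after LPS and 304, 316 and 323 CPM after LPS and torin1. For Oas1a the torin1 library of experiment 2 reached above an LPS library, and the torin1 libraries of Oas2 lay close to each other. Oas3, the synthetase with the longest chain, was at 167, 338 and 205 CPM in control cells, 413, 589 and 447 CPM after LPS and 417, 619.8 and 416 CPM after LPS and torin1. Its torin1 libraries of total mRNA overlapped those of LPS and were as high. In polysome-associated mRNA Oas3 was at 576, 596 and 403 CPM after LPS and 399, 684 and 329 CPM after LPS and torin1. It was lower with torin1 there in experiments 1 and 3, and was called lower only without experiment 2. LPS raised Oasl1 by a log2 fold change of 3.68 ± 0.35 (edgeR adjusted p = 1.93e-05), the largest of the group, and Oas3 by 1.03 ± 0.26 (edgeR adjusted p = 0.00866), the smallest, with 1.299 ± 0.16 (edgeR adjusted p = 0.000112) for Oas2. Torin1 beside LPS gave −1.70 ± 0.32 (edgeR adjusted p = 0.00372) for Oasl1, −0.46 ± 0.16 (edgeR adjusted p = 0.0509) for Oas2 and 0.00 ± 0.26 (edgeR adjusted p = 0.994) for Oas3, which was not called. Without experiment 3 the torin1 call of Oas2 (−0.37) was lost. Called lower with torin1 in total mRNA were 4 of 6 (26.4% of all genes), and 3, 5 and 2 without experiments 1, 2 and 3 (21.8%, 23.2% and 16.8%). In polysome-associated mRNA 4 were called (18.2%), and 1, 6 and 2 in the same order (6.58%, 23.4% and 4.25%). The group medians in total mRNA were 1.56 with LPS and −0.66 with torin1.

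Isg15 is a ubiquitin-like protein that is joined to other proteins during the interferon response. The ISRE matches of its promoter run into each other, and the window around the middle one (chr4:156200861-156200910, minus strand) is shown as an example of repeated GAAA units.
Isg15: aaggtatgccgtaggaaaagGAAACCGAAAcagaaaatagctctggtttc
Isg15 was at 7.84, 36.7 and 14.9 CPM in control cells, 243, 269.9 and 276 CPM after LPS and 90.9, 168 and 90.8 CPM after LPS and torin1 in total mRNA. Uba7, the activating enzyme for Isg15, had 25.6, 61.7 and 32.9 CPM in control cells, 143, 169 and 137 CPM after LPS and 91.2, 166 and 84.7 CPM after LPS and torin1. Isg15 separated the 3 treatments without overlap, and for Uba7 the torin1 library of experiment 2 lay among the LPS libraries. Herc6, the main ligase for Isg15 in mouse, was at 13.03, 30.1 and 17.03 CPM in control cells, 127, 137 and 96.9 CPM after LPS and 61.2, 128 and 60.8 CPM after LPS and torin1, and 12.5% of its 50-base words occur elsewhere, in part in an overlapping gene model. Usp18, which removes Isg15 and restrains signalling at the interferon receptor, had 53.1, 246 and 90.4 CPM in control cells, 846, 959 and 737 CPM after LPS and 318, 690.4 and 411 CPM after LPS and torin1. Trim25, a ubiquitin ligase that acts on the RNA sensor RIG-I, was at 211, 228 and 204 CPM in control cells, 695, 717 and 758 CPM after LPS and 561, 648 and 573 CPM after LPS and torin1. Trim25 was the member of this system with the most even levels between experiments, and its 3 treatments did not overlap in total mRNA. With LPS, Isg15 rose by 3.72 ± 0.49 (edgeR adjusted p = 0.000165) and Trim25, the smallest change, by 1.76 ± 0.10 (edgeR adjusted p = 1.1e-06). With torin1, Isg15 fell by 1.17 ± 0.45 (edgeR adjusted p = 0.0721) and Trim25 by 0.28 ± 0.10 (edgeR adjusted p = 0.0555). The calls with torin1 of Isg15 (−0.99) and Trim25 (−0.22) were lost without experiment 3. In total mRNA 3 of 5 were called lower with torin1 (26.4% of all genes), and 2, 5 and 0 without experiments 1, 2 and 3 (21.8%, 23.2% and 16.8%). In polysome-associated mRNA 2 were called (18.2%), and 1, 4 and 0 in the same order (6.58%, 23.4% and 4.25%). Medians in total mRNA were 2.58 with LPS and −0.53 with torin1.

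Sensors and helicases of the list find foreign nucleic acid or change RNA. Ddx60, a helicase of the same broad class as the RIG-I-like receptors, had a pair of ISRE matches upstream of its start, of which the first is shown (chr8:61928014-61928063, plus strand).
Ddx60: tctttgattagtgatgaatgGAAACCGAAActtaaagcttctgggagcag
Its levels in total mRNA were 5.68, 20.5 and 9.42 CPM in control cells, 66.7, 84.3 and 77.7 CPM after LPS and 25.6, 61.1 and 39.7 CPM after LPS and torin1. Ddx58, which encodes RIG-I, was at 99.9, 298 and 128 CPM in control cells, 916, 824 and 688 CPM after LPS and 383, 647 and 365 CPM after LPS and torin1. Ifih1, which encodes the long double-stranded RNA sensor MDA5, had 40.6, 117.2 and 54.7 CPM in control cells, 803, 786 and 649 CPM after LPS and 225, 411 and 231 CPM after LPS and torin1. None of the 3 overlapped between LPS and LPS with torin1, though experiment 2 was the highest with torin1 for each. Dhx58, which encodes LGP2, a regulator of the other RIG-I-like receptors, was at 37.0, 95.1 and 43.2 CPM in control cells, 247, 276 and 225 CPM after LPS and 153, 251 and 117.98 CPM after LPS and torin1. Zbp1, a sensor of Z-form nucleic acid that can start cell death, had 3.74, 15.5 and 5.76 CPM in control cells, 182, 151 and 119.1 CPM after LPS and 72.0, 132 and 58.5 CPM after LPS and torin1. For both, the torin1 library of experiment 2 lay within the range of the LPS libraries. Eif2ak2, the kinase PKR that stops translation on double-stranded RNA, was at 172, 275 and 188 CPM in control cells, 735, 593 and 552 CPM after LPS and 305, 399 and 287 CPM after LPS and torin1. Adar, which edits adenosine to inosine in double-stranded RNA, had 232, 380.3 and 269 CPM in control cells, 558, 575 and 596 CPM after LPS and 416, 547 and 430.0 CPM after LPS and torin1, and 1365 bases of its exons overlap Chrnb2 on the other strand. Znfx1, a helicase-like RNA sensor at mitochondria, was at 242, 391 and 287 CPM in control cells, 1113, 1027 and 1099.7 CPM after LPS and 645, 979 and 671 CPM after LPS and torin1. None of these 3 overlapped between LPS and LPS with torin1. Helz2, a helicase that acts as a transcriptional coactivator, had 137, 209 and 163 CPM in control cells, 849, 1011 and 1026 CPM after LPS and 536, 808 and 547 CPM after LPS and torin1, again without overlap.

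Within this group LPS raised Zbp1 by a log2 fold change of 4.16 ± 0.51 (edgeR adjusted p = 9.98e-05), the largest, and Adar by 0.97 ± 0.18 (edgeR adjusted p = 0.0013), the smallest. Torin1 gave −0.78 ± 0.44 (edgeR adjusted p = 0.213) for Zbp1 and −0.31 ± 0.18 (edgeR adjusted p = 0.21) for Adar. The largest fall with torin1 was that of Ifih1, at −1.37 ± 0.36 (edgeR adjusted p = 0.0177). Leaving out experiment 1 removed the torin1 calls of Zbp1 (−0.51) and Adar (−0.26), and without experiment 3 those of Zbp1 (−0.70) and Adar (−0.23) were removed. Zbp1 also lost its call with DESeq2 and with a model over all libraries, and Adar with library totals alone. Called lower with torin1 in total mRNA were 8 of 9 (26.4% of all genes), and 4, 9 and 2 without experiments 1, 2 and 3 (21.8%, 23.2% and 16.8%). Ifih1 and Eif2ak2 were the calls kept without experiment 3. In polysome-associated mRNA 6 of 9 were called lower (18.2% of all genes), and 2, 9 and 0 without experiments 1, 2 and 3 (6.58%, 23.4% and 4.25%). The group medians in total mRNA were 2.21 with LPS and −0.78 with torin1.

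Antiviral effectors act on the virus itself. Rsad2 (viperin) makes a nucleotide analogue that ends viral RNA chains, and it had the largest LPS change of the 53 genes. Its promoter window (chr12:26456543-26456592, minus strand) holds the ISRE in the TTTC form, while the promoter of its neighbour Cmpk2 had no match.
Rsad2: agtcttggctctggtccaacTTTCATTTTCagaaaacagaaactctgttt
Rsad2 was at 8.72, 50.6 and 25.2 CPM in control cells, 1463, 2701 and 1426 CPM after LPS and 218, 935 and 366 CPM after LPS and torin1 in total mRNA. Cmpk2, a nucleotide kinase whose gene lies beside Rsad2 on chromosome 12, had 12.5, 84.5 and 31.2 CPM in control cells, 573, 1216 and 574 CPM after LPS and 128, 458 and 159 CPM after LPS and torin1. Both were highest in experiment 2 under each treatment, and the 3 treatments did not overlap. Mx1, a GTPase that blocks influenza virus in the nucleus, was at 1.97, 7.94 and 2.75 CPM in control cells, 89.8, 110.2 and 51.9 CPM after LPS and 9.97, 39.8 and 8.75 CPM after LPS and torin1. Mx2, its neighbour on chromosome 16 and the gene of a cytoplasmic GTPase, is listed as a polymorphic pseudogene in the annotation used here for lengths. It had 31.1, 72.9 and 50.4 CPM in control cells, 510.0, 412 and 458 CPM after LPS and 99.0, 217 and 112.6 CPM after LPS and torin1. Isg20, an exonuclease for RNA, was at 2.34, 9.81 and 3.69 CPM in control cells, 68.6, 125.2 and 61.0 CPM after LPS and 13.3, 49.8 and 11.2 CPM after LPS and torin1. In these 3 genes the torin1 libraries lay under every LPS library and over every control library of total mRNA. Bst2 (tetherin), which holds budding virus at the cell surface, had 35.1, 60.6 and 56.8 CPM in control cells, 128.8, 238 and 159 CPM after LPS and 93.5, 152 and 116 CPM after LPS and torin1. Ifitm3, which blocks the fusion of virus in endosomes, was at 286, 449 and 292 CPM in control cells, 650.1, 799 and 669 CPM after LPS and 548, 778 and 514 CPM after LPS and torin1, and some of its 50-base words also occur elsewhere, Ifitm2 included. Samhd1, which lowers the deoxynucleotide pool, had 154, 237 and 194 CPM in control cells, 673, 727 and 528 CPM after LPS and 289, 549 and 272 CPM after LPS and torin1. For each of these 3 the torin1 library of experiment 2 was above the lowest LPS library.

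In polysome-associated mRNA Rsad2 was at 8.07, 37.5 and 17.4 CPM in control cells, 1039.9, 1979.5 and 1247 CPM after LPS and 202, 698 and 346 CPM after LPS and torin1. Mx1 was at 1.14, 5.45 and 1.82 CPM in control cells, 60.3, 80.8 and 35.3 CPM after LPS and 6.59, 27.8 and 5.16 CPM after LPS and torin1. Rsad2 kept the 3 treatments apart in this RNA type, and for Mx1 the torin1 and control libraries overlapped. Rsad2 rose with LPS by a log2 fold change of 6.04 ± 0.76 (edgeR adjusted p = 0.000119) in total and 6.08 ± 0.67 (edgeR adjusted p = 8.79e-05) in polysome-associated mRNA. Ifitm3, the smallest change of the group, rose by 1.04 ± 0.21 (edgeR adjusted p = 0.00222) in total mRNA. Mx1 rose by 4.28 ± 0.69 (edgeR adjusted p = 0.000611) in total and 4.39 ± 0.77 (edgeR adjusted p = 0.00152) in polysome-associated mRNA. With torin1 beside LPS, Mx1 fell by 2.11 ± 0.62 (edgeR adjusted p = 0.0282) in total and by 2.16 ± 0.69 (edgeR adjusted p = 0.0621) in polysome-associated mRNA, where the call was lost without experiment 1 (−1.82). Rsad2 fell by 1.88 ± 0.63 (edgeR adjusted p = 0.0464) in total mRNA, and Ifitm3 had −0.20 ± 0.21 (edgeR adjusted p = 0.495), which was not called. In total mRNA 7 of 8 were called lower (26.4% of all genes), and 7, 8 and 5 without experiments 1, 2 and 3 (21.8%, 23.2% and 16.8%). In polysome-associated mRNA 6 were called (18.2%), and 2, 8 and 2 in the same order (6.58%, 23.4% and 4.25%). The medians in total mRNA were 3.57 with LPS and −1.68 with torin1.

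The PARP genes of the list encode ADP-ribosyltransferases or proteins of that fold. Parp9 works in a complex with the ubiquitin ligase Dtx3l, and the exons of these neighbours overlap by 458 bases on opposite strands, so that their counts are uncertain to that extent. So are those of 15 other members whose exons overlap another gene model, by 205 bases or more in Adar, Herc6, Slfn5, Rtp4, Ifi35, Uba7, Eif2ak2 and Parp10 and by fewer in Dhx58, Usp18, Parp14, Pml, Sp100, Znfx1 and Oasl1. Parp14, a mono-ADP-ribosyltransferase with macrodomains, was at 182, 344 and 232 CPM in control cells, 1465, 1179 and 1292 CPM after LPS and 902, 1154 and 905 CPM after LPS and torin1 in total mRNA. Parp9 had 91.7, 194 and 99.1 CPM in control cells, 482, 406 and 343 CPM after LPS and 275, 377 and 272 CPM after LPS and torin1. Dtx3l was at 83.2, 158 and 98.6 CPM in control cells, 411, 356 and 355 CPM after LPS and 238, 337 and 229.6 CPM after LPS and torin1. For Parp14 and Dtx3l the torin1 library of experiment 2 lay under the lowest LPS library, and for Parp9 it lay above it. Parp10, a mono-ADP-ribosyltransferase whose exons overlap Plec by 205 bases, had 37.8, 68.9 and 45.5 CPM in control cells, 201, 309 and 234 CPM after LPS and 105.1, 190.5 and 97.9 CPM after LPS and torin1. Parp12, a zinc finger protein that binds RNA, was at 108, 228 and 123.9 CPM in control cells, 612, 547 and 412 CPM after LPS and 325, 471 and 263 CPM after LPS and torin1. Parp10 separated LPS from LPS with torin1 and Parp12 did not. With LPS, Parp14 rose by a log2 fold change of 2.38 ± 0.22 (edgeR adjusted p = 1.78e-05) and Parp9, the smallest of the group, by 1.68 ± 0.28 (edgeR adjusted p = 0.000678), with 1.72 ± 0.23 (edgeR adjusted p = 0.000201) for Dtx3l. Torin1 gave −0.41 ± 0.21 (edgeR adjusted p = 0.17) for Parp14, −0.48 ± 0.23 (edgeR adjusted p = 0.14) for Dtx3l and −0.41 ± 0.27 (edgeR adjusted p = 0.276) for Parp9, which was not called. Without experiment 1 the torin1 calls of Parp14 (−0.27) and Dtx3l (−0.33) were lost, and without experiment 3 those of Parp14 (−0.36) and Dtx3l (−0.42) were lost. Called lower in total mRNA were 4 of 5 (26.4% of all genes), and 1, 5 and 1 without experiments 1, 2 and 3 (21.8%, 23.2% and 16.8%), Parp10 being the call kept in each. In polysome-associated mRNA Parp10 alone of the 5 was called, beside 18.2% of all genes, which is near that share. Without experiments 1, 2 and 3, 0, 3 and 1 were called (6.58%, 23.4% and 4.25%). The medians in total mRNA were 1.77 with LPS and −0.48 with torin1.

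Schlafen genes are a cluster on chromosome 11 that restrains cell growth and viral protein synthesis. The promoter window of Slfn8 (chr11:83020829-83020878, minus strand) is shown because this gene and its neighbour Slfn2 lie at opposite ends of the group with torin1. Slfn2 had no match and Slfn5 had one.
Slfn8: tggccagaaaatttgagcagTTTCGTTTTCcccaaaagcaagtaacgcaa
Slfn8 was at 41.5, 75.0 and 46.6 CPM in control cells, 361, 260.4 and 247 CPM after LPS and 110.6, 141 and 94.7 CPM after LPS and torin1 in total mRNA, and 14.6% of its 50-base words occur in other Schlafen genes or pseudogenes. Slfn2, which protects the quiescence of immune cells, had 195, 336 and 155 CPM in control cells, 1476, 1159 and 1032 CPM after LPS and 1137, 1312 and 1026 CPM after LPS and torin1. Slfn5 was at 65.8, 184 and 81.9 CPM in control cells, 988, 962 and 751 CPM after LPS and 445, 726 and 438 CPM after LPS and torin1. Slfn8 with torin1 stayed under each LPS library, while Slfn2 overlapped and was higher with torin1 than without it in experiment 2. LPS raised Slfn5 by a log2 fold change of 3.02 ± 0.37 (edgeR adjusted p = 0.000105), Slfn2 by 2.42 ± 0.27 (edgeR adjusted p = 5.23e-05) and Slfn8 by 2.41 ± 0.25 (edgeR adjusted p = 3.55e-05). Torin1 beside LPS gave −1.33 ± 0.24 (edgeR adjusted p = 0.00316) for Slfn8, −0.75 ± 0.35 (edgeR adjusted p = 0.131) for Slfn5 and −0.08 ± 0.25 (edgeR adjusted p = 0.849) for Slfn2, which was not called. The torin1 call of Slfn5 was lost without experiment 1 (−0.56) and without experiment 3 (−0.74). In total mRNA 2 of 3 were called lower (26.4% of all genes), and 1, 2 and 1 without experiments 1, 2 and 3 (21.8%, 23.2% and 16.8%). The same counts held in polysome-associated mRNA (18.2%, and 6.58%, 23.4% and 4.25% of all genes). The group medians in total mRNA were 2.42 and −0.75.

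Trim21, Trim30a and the proteins of nuclear bodies come next. Trim30a, a ubiquitin ligase that restrains signalling of Toll-like receptors, has an ISRE in the TTTC form upstream of its start (chr7:104465200-104465249, minus strand).
Trim30a: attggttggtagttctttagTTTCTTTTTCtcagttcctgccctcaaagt
It was at 38.0, 169 and 74.0 CPM in control cells, 528, 492 and 388 CPM after LPS and 175, 411 and 230.4 CPM after LPS and torin1 in total mRNA. Trim21, which binds antibody on viruses that enter the cytosol, had 14.9, 26.5 and 19.9 CPM in control cells, 73.3, 66.0 and 81.5 CPM after LPS and 28.0, 44.3 and 34.7 CPM after LPS and torin1. Trim21 was higher in each LPS library than in any with torin1, and Trim30a overlapped through experiment 2. Pml, which builds the nuclear bodies named after it, was at 35.1, 61.8 and 45.6 CPM in control cells, 154, 210.2 and 190.1 CPM after LPS and 64.6, 141 and 65.4 CPM after LPS and torin1. Sp100, another scaffold of these bodies, had 36.4, 109.9 and 53.8 CPM in control cells, 381, 378 and 281 CPM after LPS and 186, 309 and 192 CPM after LPS and torin1. Daxx, a histone chaperone found in them, was at 67.6, 99.1 and 74.1 CPM in control cells, 440.2, 592 and 461 CPM after LPS and 175, 309 and 162 CPM after LPS and torin1. Pml and Daxx separated LPS from LPS with torin1 and Sp100 did not. With LPS, Daxx rose by a log2 fold change of 2.63 ± 0.26 (edgeR adjusted p = 2.61e-05), the largest of the group, and Trim21 by 1.85 ± 0.22 (edgeR adjusted p = 7.64e-05), the smallest. Torin1 gave −1.21 ± 0.25 (edgeR adjusted p = 0.0057) for Daxx and −1.04 ± 0.21 (edgeR adjusted p = 0.00543) for Trim21. Called lower in total mRNA were 5 of 5 (26.4% of all genes). Without experiments 1, 2 and 3 these were 3, 5 and 3 (21.8%, 23.2% and 16.8%), where Trim30a and Sp100 were lost. In polysome-associated mRNA 3 were called (18.2%), and 1, 5 and 1 in the same order (6.58%, 23.4% and 4.25%). Medians in total mRNA were 2.33 with LPS and −1.03 with torin1.

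The last group holds adaptors, lectins and genes of less settled role. Lgals9 encodes a galectin, a lectin that binds sugars on cell-surface proteins, and has ISRE matches before and after its start, of which the one before it is shown (chr11:78984950-78984999, minus strand).
Lgals9: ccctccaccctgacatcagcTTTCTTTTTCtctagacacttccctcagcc
Lgals9 was at 20.4, 96.3 and 42.3 CPM in control cells, 324, 340.4 and 272 CPM after LPS and 103, 282 and 133 CPM after LPS and torin1 in total mRNA. Lgals3bp, a secreted glycoprotein that binds galectins, had 156, 299 and 228 CPM in control cells, 455, 788 and 616 CPM after LPS and 334, 548 and 393 CPM after LPS and torin1. Rtp4, a chaperone for membrane receptors whose exons overlap another gene model by 296 bases, was at 57.1, 139 and 81.5 CPM in control cells, 239.5, 208 and 171 CPM after LPS and 123.2, 172 and 111.6 CPM after LPS and torin1. For all 3 the torin1 library of experiment 2 was at or above the lowest LPS library, and for Rtp4 the control library of experiment 2 was above a torin1 library. Nmi, which binds STAT proteins, had 19.99, 37.8 and 23.8 CPM in control cells, 88.6, 88.8 and 59.8 CPM after LPS and 41.4, 68.6 and 38.2 CPM after LPS and torin1. Its partner Ifi35 was at 49.1, 90.7 and 52.9 CPM in control cells, 199, 192 and 159 CPM after LPS and 111.4, 159.9 and 92.6 CPM after LPS and torin1. Ifi44, which restrains cell growth, had 118.4, 516 and 238 CPM in control cells, 919.8, 1034 and 819 CPM after LPS and 302, 771 and 400.1 CPM after LPS and torin1. Ifi44 had the widest spread of these 3 in control cells, from experiment 1 to experiment 2, and its control library of experiment 2 was above a torin1 library. Xaf1, a partner of an inhibitor of apoptosis, was at 32.0, 78.7 and 39.2 CPM in control cells, 224, 201 and 179 CPM after LPS and 119.8, 179 and 118.1 CPM after LPS and torin1. Tor3a, an ATPase of the endoplasmic reticulum, had 151, 238 and 151 CPM in control cells, 765, 807 and 685 CPM after LPS and 436, 544 and 419 CPM after LPS and torin1. Tor3a kept LPS and LPS with torin1 apart and Xaf1 did not.

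In this last group LPS raised Lgals9 by a log2 fold change of 2.56 ± 0.52 (edgeR adjusted p = 0.00248), the largest, and Rtp4 by 1.16 ± 0.29 (edgeR adjusted p = 0.00806), the smallest. Torin1 gave −0.86 ± 0.49 (edgeR adjusted p = 0.22) for Lgals9, −0.61 ± 0.29 (edgeR adjusted p = 0.139) for Rtp4, −0.54 ± 0.27 (edgeR adjusted p = 0.156) for Lgals3bp and −0.60 ± 0.25 (edgeR adjusted p = 0.101) for Ifi35. The calls with torin1 of Lgals9 (−0.57), Rtp4 (−0.43) and Ifi35 (−0.48) were lost without experiment 1, and without experiment 3 those of Lgals9 (−0.79), Rtp4 (−0.60), Lgals3bp (−0.49) and Ifi35 (−0.53). Called lower in total mRNA were 8 of 8 (26.4% of all genes), and 2, 8 and 2 without experiments 1, 2 and 3 (21.8%, 23.2% and 16.8%). In polysome-associated mRNA 6 of 8 were called lower (18.2%), and 1, 8 and 1 without experiments 1, 2 and 3 (6.58%, 23.4% and 4.25%). The group medians in total mRNA were 1.60 with LPS and −0.64 with torin1.

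Because read counts grow with the length of an mRNA, levels between these genes are compared as mean CPM per kilobase of exon in total mRNA, ± SD over 3 libraries. In control cells the highest was Ifitm3 at 505 ± 136.4 CPM per kilobase, followed by Slfn2 at 137 ± 57.2, and the lowest were Ddx60 at 1.37 ± 0.886, Mx1 at 1.12 ± 0.858 and Ifit3b at 0.892 ± 0.737. The SDs of these 3 overlap, so their order is uncertain. With LPS, Ifitm3 (1041 ± 119.97) and Slfn2 (735 ± 137) were again the highest, and Oasl1 followed at 640.4 ± 34.3. By their means Rsad2 (429.8 ± 167) and Ifit1 (358 ± 42.7) had come up to the 4th and 5th place, Ddx60 being the lowest at 8.78 ± 1.02. The SDs of Rsad2 and Ifit1 overlap, so these places are uncertain. With LPS and torin1 the order began with Ifitm3 at 904 ± 212, Slfn2 at 696 ± 86.8 and Oasl1 at 197 ± 56.7, while Rsad2 stood at 116.8 ± 87.4 and Ifit1 at 89.6 ± 48.5. The SDs of Slfn2 and Oasl1 overlap with LPS alone and are far apart with torin1.

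The question whether the polysomes took up more or less of an mRNA than its total level predicts was put to a test of translation efficiency, the difference between the polysome-associated and the total change, fitted over all 18 libraries and called at an adjusted p of at most 0.25 with at least 1.2-fold. For LPS versus control edgeR called 0 of 53 genes (0.0% of all genes), for LPS with torin1 versus LPS 0 (0.0%) and for LPS with torin1 versus control 0 (0.0%). At an unadjusted p under 0.05 edgeR had 0, 0 and 0 members and 44, 110 and 145 of all genes (0.391%, 0.978% and 1.29%). This fit did not pair the libraries of a lysate, whose residuals correlated at 0.39 to 0.65. The shares of all genes lie far below the threshold of 0.05, so the test was strict. The 0 members called by it therefore cannot show that efficiency was unchanged. DESeq2 called 0 members in each, with 1, 13 and 1 genes of the table, and 0 members had an unadjusted p under 0.05. With the lysate as a block the calls were 0 members in each and 0, 25 and 3 genes, and with analysis of partial variance 0 members and 10, 21 and 13 genes, with 2, 1 and 5 members at an unadjusted p under 0.05 (3.77%, 1.89% and 9.43%), beside 6.35%, 6.19% and 10.2% of all genes. The edgeR medians of the 53 genes were 0.00, 0.00 and −0.01, beside 0.00, −0.02 and −0.02 for all genes. Analysis of partial variance gave 0.29, −0.08 and 0.19, beside −0.01, −0.02 and −0.03. Its value is the treatment effect on the polysome-associated level at a fitted slope on the total level. It is not the difference of the 2 changes, so these medians are not on the same footing as those of edgeR. In the edgeR fit without experiment 2, 1 member was called for LPS with torin1 versus control, namely Bst2, among 430 genes of the table, and the medians were 0.06, 0.11 and 0.17.

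The log2 ratio of polysome-associated to total level gives this by lysate. Bst2, with the lowest translation efficiency change of the 53 genes for LPS, had ratios of 1.69, 1.09 and 1.36 in control cells, 1.10, 0.99 and 0.61 with LPS and 0.60, 1.32 and 0.28 with LPS and torin1. Those of Daxx were 0.69, 0.44 and 0.27 in control cells, 0.22, 0.28 and 0.02 with LPS and 0.12, 0.37 and 0.12 with LPS and torin1. Bst2 was higher in each control lysate than in the LPS lysate of the same experiment, and its torin1 lysate of experiment 2 was above those of LPS. The control lysates of Daxx were likewise above the LPS lysates of their experiments, and its LPS change was −0.28 ± 0.43, not called by edgeR. The change of Bst2 was −0.43 ± 0.51 (edgeR adjusted p = 1) with LPS and −0.48 ± 0.51 (edgeR adjusted p = 0.998) for LPS with torin1 versus control, where only the second was called without experiment 2. Dtx3l, the ligase partner of Parp9, had ratios of −0.86, −0.98 and −0.76 in control cells, −0.89, −1.07 and −0.57 with LPS and −0.25, −0.96 and −0.37 with LPS and torin1. Those of Lgals3bp were 0.59, −0.14 and 0.22 in control cells, 0.45, 0.06 and 0.01 with LPS and 0.00, −0.23 and −0.19 with LPS and torin1. For Dtx3l the torin1 lysates of experiments 1 and 3 were above every control and LPS lysate, and that of experiment 2 was not. The change of Dtx3l with torin1 beside LPS was 0.29 ± 0.33 and that of Lgals3bp −0.30 ± 0.34, neither of them called by edgeR. Ifi35 had ratios of 0.42, 0.26 and 0.26 in control cells, 0.35, 0.15 and 0.20 with LPS and 0.22, −0.03 and −0.06 with LPS and torin1, lowest with torin1 in each experiment, and a change of −0.20 ± 0.39 with torin1 beside LPS, not called either. The ratios of Oas2 were −0.76, −0.57 and −0.88 in control cells, −0.52, −0.40 and −0.79 with LPS and −0.66, −0.61 and −0.78 with LPS and torin1, and its LPS change was 0.14 ± 0.24, also not called. The median ratio of the 53 genes was −0.11, −0.19 and −0.24 in control cells, −0.19, −0.12 and −0.15 with LPS and 0.00, −0.33 and −0.12 with LPS and torin1, so that the lysates of experiment 2 fell lowest with torin1. An efficiency change that misses the threshold does not show that it is absent, and the SE of these fits was 0.24 for Oas2 and 0.51 for Bst2.

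**Figure D5:**
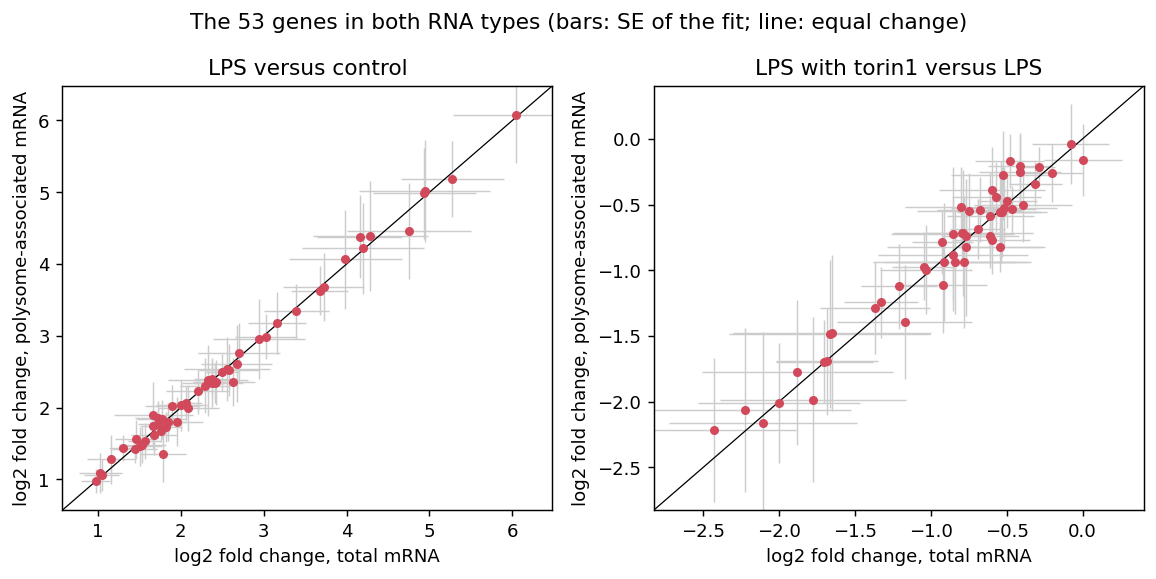
Fitted log2 fold change in polysome-associated against total mRNA for the 53 genes, for LPS versus control and for LPS with torin1 versus LPS, with the SE of each fit as bars and the line of equal change. The points lie along the line from 0.97 to about 6 with LPS and from −2.42 to 0.00 with torin1.

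Promoters in RefSeq were found for 42 of the 53 genes, and those of Oas2, Usp18, Dhx58, Zbp1, Mx1, Mx2, Parp9, Parp10, Parp14, Rtp4 and Tor3a were not in the table. The ISRE letters GAAANNGAAA, on either strand, were in 19 of the 42 promoters (45.2%) and in 3.99% of the promoters of 27025 genes. The 19 genes with an ISRE match had a median LPS change of 2.41 in total mRNA, from 1.03 for Oas3 to 6.04 for Rsad2, and the 23 without one a median of 1.96, from 0.97 for Adar to 4.75 for Ifit2. With torin1 beside LPS the medians were −0.86 and −0.60. The difference between these groups was not tested, and genes of both kinds lay near the top and near the bottom of the range. A match of letters is a description of the sequence, and a promoter without one may hold a variant of it outside these letters or this window.

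The genes that lead to interferon production and to its signal were called in both directions, and their difference from the interferon-stimulated genes was not tested. Of 16 listed genes for production, 14 were in the table and the genes Ifnb1 and Ifna4 for interferons themselves were not. A gene with 0 counts in any library had been removed, so this absence does not show that they were silent after LPS. With LPS 9 rose (32.2% of all genes) and 3 fell (34.3%) in total mRNA, with a median of 0.81. In polysome-associated mRNA 8 rose (26.4%) and 3 fell (28.7%), with a median of 0.89. With torin1 beside LPS 3 rose (27.3% of all genes) and 6 fell (26.4%) in total mRNA, with a median of 0.00. Polysome-associated mRNA had 3 rising (20.3%) and 5 falling (18.2%), with a median of −0.13. Irf7, the transcription factor that amplifies interferon production, was at 73.0, 194 and 95.6 CPM in control cells, 699, 1019 and 548 CPM after LPS and 332, 697 and 249 CPM with both, and it too was highest in experiment 2 among the control libraries. Its log2 fold change was 2.64 ± 0.45 (edgeR adjusted p = 0.000896) with LPS and −0.83 ± 0.43 (edgeR adjusted p = 0.176) with torin1. Ticam2, an adaptor of Tlr4, moved the other way, at 5.86, 6.31 and 6.15 CPM, 3.27, 2.46 and 2.44 CPM and 7.24, 6.62 and 6.90 CPM under the 3 treatments in the same order, with −1.17 ± 0.17 (edgeR adjusted p = 0.000276) and 1.35 ± 0.17 (edgeR adjusted p = 0.000459). Ikbke, a kinase for Irf3, rose by 2.76 ± 0.14 (edgeR adjusted p = 4.22e-07) with LPS and was not called with torin1, at 0.06 ± 0.13.

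Of 12 genes of interferon receptor signalling, all in the table, 8 rose (32.2% of all genes) and 2 fell (34.3%) with LPS in total mRNA. In polysome-associated mRNA 6 rose (26.4%) and 1 fell (28.7%), and the medians were 0.64 and 0.51. With torin1 beside LPS 3 rose (27.3%) and 5 fell (26.4%) in total mRNA, and 2 rose (20.3%) and 3 fell (18.2%) in polysome-associated mRNA. Those medians were −0.11 and −0.12. Stat2, a transcription factor of this signal, was at 31.1, 66.8 and 38.6 CPM in control cells, 243, 274 and 268 CPM after LPS and 102, 202 and 108 CPM with both. As for the interferon-stimulated genes, the control and the torin1 library of experiment 2 were the highest of their groups. Stat2 rose by a log2 fold change of 2.52 ± 0.32 (edgeR adjusted p = 0.000121) with LPS and changed with torin1 by −0.93 ± 0.30 (edgeR adjusted p = 0.0417). Ifnar1, a chain of the receptor, was not called with LPS, at −0.01 ± 0.17 (edgeR adjusted p = 0.971), and rose with torin1 by 0.55 ± 0.17 (edgeR adjusted p = 0.0305). Socs3, a feedback inhibitor, rose by 6.89 ± 0.18 (edgeR adjusted p = 2.33e-08) and changed with torin1 by −1.06 ± 0.14 (edgeR adjusted p = 0.000658).

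For comparison, 13 of 16 listed inflammatory genes driven by NF-kB were in the table, without Il6, Il12b and Nos2. Absence can again come from 0 counts in a single library, and the values below leave such genes out. All 13 rose with LPS in total (32.2% of all genes) and polysome-associated mRNA (26.4%), with medians of 5.23 and 5.36. Torin1 beside LPS lowered 7 in total (26.4%) and 6 in polysome-associated mRNA (18.2%), with medians of −0.39 and −0.54. EdgeR called 0 higher (27.3% and 20.3% of all genes). Cxcl10, a chemokine also induced by interferon, was at 20.1, 42.8 and 31.6 CPM in control cells, 846, 1344 and 1014 CPM after LPS and 70.2, 235 and 66.1 CPM with both. Its log2 fold changes were 5.08 ± 0.54 (edgeR adjusted p = 4.04e-05) and −3.11 ± 0.49 (edgeR adjusted p = 0.00158). Ccl3, a chemokine of early inflammation, had 4.86 ± 0.25 (edgeR adjusted p = 4.73e-07) and 0.00 ± 0.21 (edgeR adjusted p = 0.99), and was not called with torin1. Whether the interferon-stimulated genes differ from this list in their loss with torin1 was not tested.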

How the data were processed

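The values are gene counts as deposited: the authors aligned reads to GRCm38 with Hisat2, counted them with featureCounts and describe the table as protein-coding genes with at least 1 count in each library. Mx2, which is in it, is a polymorphic pseudogene in the GENCODE annotation. The 18 columns of counts were used, and 0 columns were left out. Library totals were 27800983 to 47725557. The members and the 9 pathway and marker lists were chosen with earlier results of these data known.

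Counts were fitted with edgeR 4.0.16 in R 4.3.3 (quasi-likelihood, TMM scaling within an RNA type, 3 treatments in a model), with p-values adjusted by Benjamini-Hochberg over 11243 genes. Calls used an adjusted p of at most 0.25, and translation efficiency, the interaction of treatment and RNA type over 18 libraries, also needed 1.2-fold. Levels use a pseudocount of 0.5 on the log2 CPM scale. The pairing by lysate was checked on the counts: total and polysome-associated residuals of a lysate correlated across genes at 0.39 to 0.65, over 0.1 in 9 of 9.

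Every member was accounted for. The rule for named genes took the largest and smallest LPS change in total mRNA of each role, the 3 largest rises and falls in each of LPS versus control and LPS with torin1 versus LPS that moved the same way in 3 experiments, members called in opposite directions, and the 3 smallest interaction p per translation efficiency change. Test values of other members, such as Ifih1, Oas2 with torin1 and Slfn2, were added after their values were seen, as were the per-library values of members outside the rule and the choice of promoter windows.

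The 11 alternatives were a block for the experiment or lysate, DESeq2 1.42.0, RLE size factors, library totals alone, a mean of at least 50 counts, leaving out each experiment, only the compared treatments in the model, one model over all libraries, and analysis of partial variance with limma 3.58.1. Exon lengths, overlaps and shared 50-base words come from the GENCODE annotation of GRCm38, and promoters from RefSeq.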

Additional observations from a re-analysis of the deposited data

How the results depend on the processing

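For LPS versus control the count of 53 genes called higher held in both RNA types in each setting run. For LPS with torin1 versus LPS the count of genes called lower ranged from 19 to 51 in total and from 10 to 49 in polysome-associated mRNA when 1 experiment was left out, with experiment 2 left out giving the highest counts. The cause was not tested.

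With the experiment as a block the counts were 51 and 45 (31.4% and 24.3% of all genes), with DESeq2 41 and 39 (27.3% and 18.9%), with RLE size factors 45 and 36 (28.2% and 19.2%), with library totals alone 41 and 30 (20.8% and 14.5%), with the 2 compared treatments only 49 and 43 (24.3% and 16.4%), and with one model 38 and 37 (21.5% and 24.7%). Called genes of total mRNA that were lost with DESeq2 were Usp18, Zbp1, Trim30a, Sp100 and Lgals9. Library totals alone lost Adar, Trim30a, Sp100 and Xaf1. The model over all libraries lost Zbp1, Bst2, Parp14, Trim30a, Sp100, Xaf1 and Lgals9. Residuals of the treatments of an experiment within an RNA type correlated at −0.09 to 0.74, over 0.1 in 14 of 18 pairs.

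The median for LPS with torin1 versus control in total mRNA was 1.17 with library totals alone. Analysis of partial variance moved the median translation efficiency change to 0.29 for LPS versus control and to 0.19 for LPS with torin1 versus control. Leaving out 1 experiment gave medians from −0.02 to 0.11 for LPS with torin1 versus LPS. Those for LPS with torin1 versus control ran from −0.05 to 0.17, with 0 to 1 members called. The cause was not tested.

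For LPS with torin1 versus control, genes called higher in total and polysome-associated mRNA were 51 and 49 with library totals alone (19.7% and 17.9% of all genes), 51 and 50 without experiment 1 (31.6% and 21.0%), 53 and 52 without 2 (30.1% and 33.1%), 51 and 51 without 3 (27.5% and 19.6%), and at least 52 otherwise.

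Of 3392 values for the 53 genes, from LPS versus control and LPS with torin1 versus LPS in both RNA types and the 3 translation efficiency changes, 3217 kept their side of the threshold, some of them with a change of sign while not called, 64 newly passed it, 0 changed direction as called values and the others no longer passed it. With 3 libraries per group, a change that was not called is not shown to be absent. Genes with a wide spread, such as Ifit3b, had a large SE, and no detection limit was computed.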

Other observations

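Other genes were also high in the control libraries of experiment 2, and those named here were chosen after their values were seen. Ifi44l, a relative of Ifi44, was at 14.1, 124.5 and 44.7 CPM in the total mRNA of control cells in experiments 1, 2 and 3, and at 9.62, 83.5 and 30.8 CPM in polysome-associated mRNA. Apol9a was at 1.34, 6.99 and 1.32 CPM, and Apol9b at 0.425, 3.65 and 1.08 CPM in total mRNA. Mcoln2, an endolysosomal channel, was at 0.243, 12.1 and 4.74 CPM. Il7r, a cytokine receptor chain, was at 0.79, 7.63 and 2.9 CPM. In each case the library of experiment 2 was the highest.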
